A study of Mus musculus with 8 samples.

Results

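The circadian clock genes examined here are Arntl, Clock, Per1, Per2, Per3, Cry1, Cry2, Nr1d1, Dbp and Bhlhe40. Their probe sets were taken by gene symbol from the platform annotation. Of the 10 genes, 9 were represented, by 18 of the 45141 probe sets on the array, and Nr1d1, the gene of the repressor REV-ERBα, was not analysed here. Expression was measured in bulge cells, the stem cell compartment of the hair follicle, from mouse back skin painted with the mutagen DMBA and the tumour promoter TPA. The cells came from 4 G9a cKO animals, in which the histone methyltransferase gene is conditionally deleted, and 4 G9a WT animals, with 1 array for each animal as the titles were read here. All 8 animals received DMBA (0.25 mg/ml) and TPA (0.02 mg/ml) in 200 µl of acetone, once a week over 6 weeks, starting when the mice were 8 weeks old. Both genotypes carry an age of 15 weeks in the labels. The sources used here do not give the promoter that drives the deletion, the way bulge cells were isolated or the time of day at which skin was taken.

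The mammalian clock is a transcriptional feedback loop. The proteins of Arntl (also called BMAL1) and Clock form a dimer that binds E-box sequences and switches on the Per and Cry genes, whose proteins then repress the dimer. The same dimer drives Nr1d1 and Dbp. REV-ERB proteins repress Arntl through ROR elements, and DBP, a PAR bZIP factor, activates genes through D-boxes, among them Per genes. In mouse tissues with a running clock, Arntl messenger RNA therefore peaks when Dbp messenger RNA is at its trough. In skin the clock is known to run in epidermal and hair follicle stem cells.

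The promoter sequences below are shown because they hold the letters of such elements, and the expression relations are described after them. Whether the matched letters are bound or have a part in these relations was not tested. They come from RefSeq (GRCm38.p6), are written 5′ to 3′ on the strand of the gene, and carry the searched motif in capitals. Windows of 300 bases, 250 before and 50 after an annotated transcription start, existed for 8 of the 10 genes, in 12 windows. The motifs searched on both strands were the E-box (CACGTG), the D-box (TTATGTAA), the cAMP response element (TGACGTCA) and the ROR element core (TAGGTCA, with TAGGTTA as a variant). Over all 32851 promoter windows these letters were found in 7.15%, 0.938%, 1.79%, 2.61% and 1.44%. The Per3 window held 2 D-boxes, beginning 205 and 158 bases before the start. The 250 bases upstream of Per3, on the minus strand at chr4:151044666-151044915, read:
Per3 promoter: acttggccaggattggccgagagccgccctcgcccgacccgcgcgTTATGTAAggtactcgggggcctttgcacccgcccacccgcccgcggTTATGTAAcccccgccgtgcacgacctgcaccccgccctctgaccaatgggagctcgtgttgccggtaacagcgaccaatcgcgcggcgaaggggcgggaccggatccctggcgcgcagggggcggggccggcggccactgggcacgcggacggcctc

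A downstream Arntl start, on the plus strand of chromosome 7, had the variant ROR core beginning 6 bases before it and the ROR core beginning at base 31 of the transcript (chr7:113207494-113207522 and chr7:113207530-113207558). An E-box began 60 bases before the Cry1 start (minus strand, chr10:85185098-85185125) and 166 bases before the start of 1 of the Per1 windows (plus strand, chr11:69098772-69098799). Tef, which encodes a PAR bZIP factor like DBP and is on the list of other clock genes, had E-boxes, of which the one at chr15:81802535-81802562 (plus strand) is given. The stretches read:
Arntl ROR core variant: tggtcggaaagTAGGTTAgtggtgcgaca
Arntl ROR core: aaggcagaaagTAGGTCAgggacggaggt
Cry1 E-box: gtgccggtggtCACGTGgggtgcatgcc
Per1 E-box: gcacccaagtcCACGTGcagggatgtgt
Tef E-box: tgctgtggctcCACGTGctgcagctggc
None of these letters was found in the windows of Clock, Cry2, Dbp and Nr1d1, which says only that they are not within these stretches. Of the other listed clock genes, Ciart, Sirt1, Bhlhe41 and Nr0b2 also had E-boxes, which are not shown. Timeless had a D-box, Hlf a cAMP response element and Nfil3 a ROR core.

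Values are log2 expression that the authors made with RMA, on which a difference of 1 is a doubling, and each gene is described by its brightest probe set unless another is named. Array medians lay between 5.87 and 5.95. Of the Ehmt2 (G9a) probe sets, 1 averaged 5.85 ± 0.41 in G9a cKO and 9.07 ± 0.19 in G9a WT (log2, mean ± SD, n = 4 each), while the other averaged 8.41 ± 0.02 in G9a cKO and 8.41 ± 0.01 in G9a WT. The level one is the brighter over all arrays, so the brightest probe set can miss a difference that another probe set shows. On the first principal component over all genes, WT replicate 4 lay at 2.92, between the cKO arrays (-12.2 to -5.95) and the other WT arrays (10.6 to 12.7). The 10 bulge markers were bright, with group means from 8.62 (Tcf7l1) to 12.36 (Krt15) in cKO and from 8.62 to 12.26 in WT. Of them 1 fell in cKO: Fst, which encodes follistatin, averaged 10.49 in cKO and 10.93 in WT (log2 change -0.44, limma adjusted p = 0.0154). Krt15 (log2 change 0.098, limma adjusted p = 0.202) and Nfatc1 (-0.35, limma adjusted p = 0.0566) also did not overlap between genotypes but did not pass. Among all genes 2.76% were called and 8.24% did not overlap. Markers of other cell types were not uniformly dim. The leukocyte gene Ptprc (3.60 in cKO and 3.61 in WT) and the fibroblast gene Pdgfra (3.88 and 3.92) were, but the antigen presentation gene Cd74 (6.75 and 6.87), the melanocyte gene Dct (6.73 and 6.74), the smooth muscle gene Acta2 (7.02 and 6.75) and the haemoglobin gene Hba-a1 (8.09 and 7.99) lay above the median probe set at 5.91.

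Clock genes varied widely between animals of the same genotype. Dbp, the clock output gene at chr7:45705100-45710203, had a pooled within-genotype SD of 0.53 on the log2 scale, which placed it at percentile 99.9 of the 17097 genes tested. Arntl was at percentile 98.4 (SD 0.32), Bhlhe40 at 98.3 (SD 0.31) and Cry2 at 95.2 (SD 0.22), so 4 of the 9 genes were among the 5% with the widest spread, and Per3 followed at 94.4 (SD 0.21). The median gene had an SD of 0.085. Wide spread was not particular to clock genes: the median SD was 0.21 over the 9 clock genes and 0.37 over 19 listed proliferation genes. Over 18 immediate early genes, a list described below, it was 0.20. Lower down were Cry1 at percentile 73.4, Per1 at 72.4, Clock at 57.5 and Per2 at 37.6. These percentiles are descriptions, since the genes were proposed with results of these data known. Fewer cells in which a gene is on and less RNA in each cell cannot be told apart in such bulk samples.

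**Figure D1:**
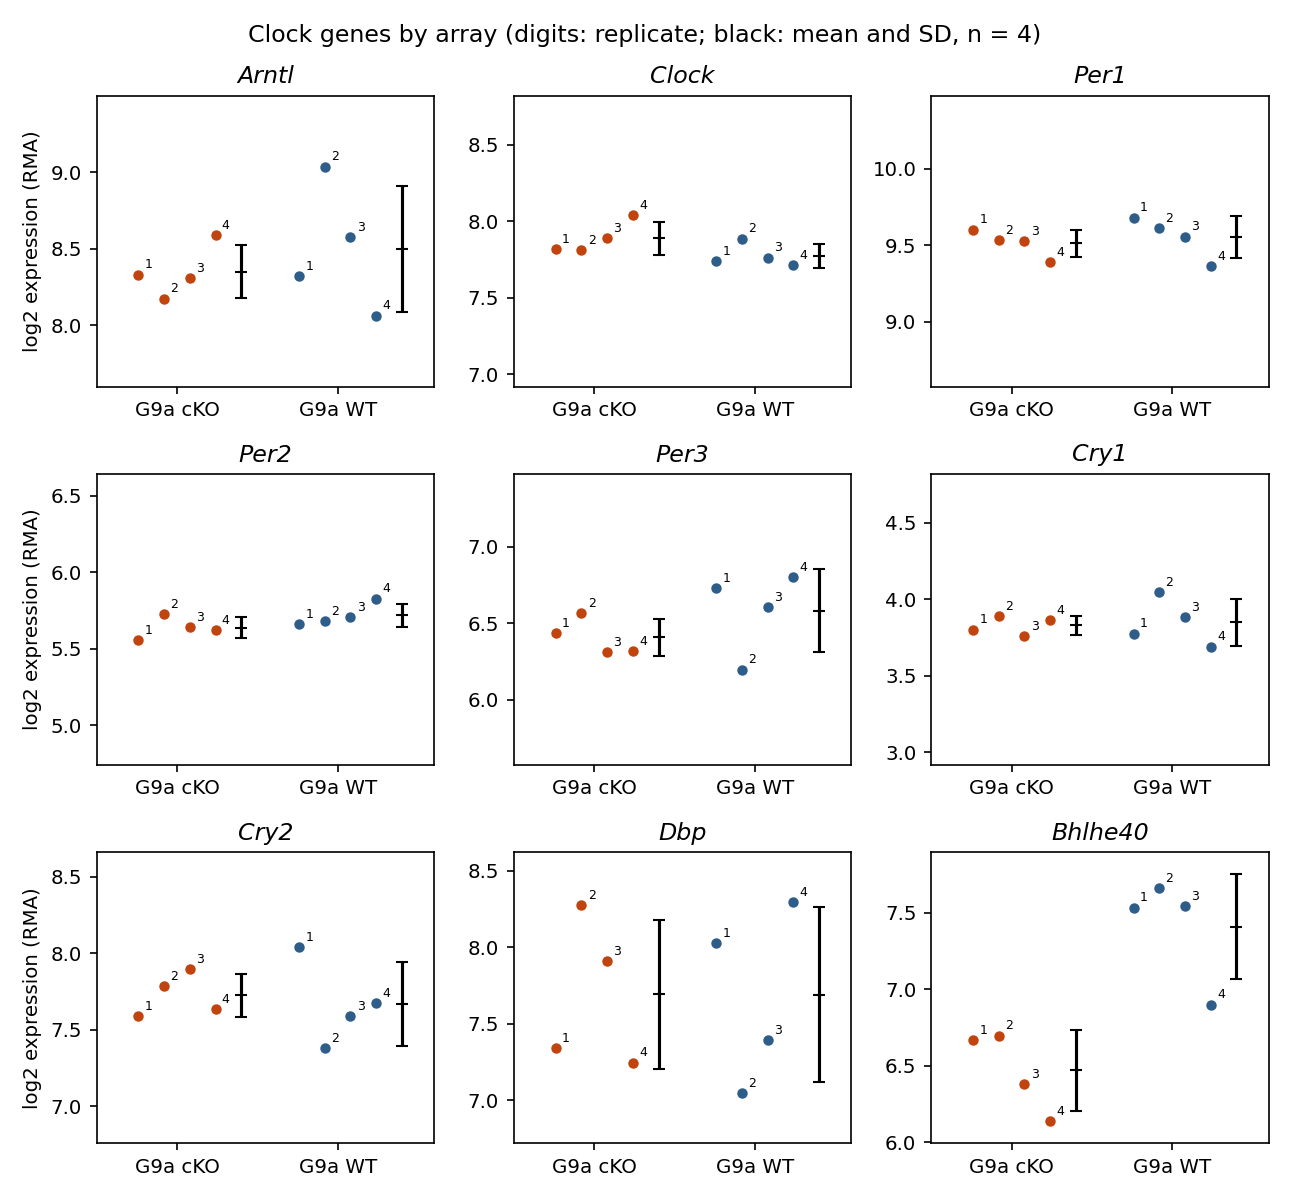
Log2 expression (RMA, vertical axes, all spanning the same range) of the 9 clock genes on each array, with G9a cKO in orange at the left and G9a WT in blue at the right. Digits give the replicate and black bars the mean and SD (n = 4). Dbp spans more than 1 unit within each genotype, and Bhlhe40 is the gene whose groups are apart.

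Dbp read 7.34, 8.27, 7.91 and 7.25 in the 4 G9a cKO arrays (replicates 1 to 4), against 8.02, 7.05, 7.39 and 8.30 in the G9a WT arrays. High and low animals occurred in both genotypes, with cKO replicates 2 and 3 and WT replicates 1 and 4 on the high side, and the lowest and highest array were 2.38-fold apart. The median gene had a 1.20-fold range over the same 8 arrays. Dbp averaged 7.69 ± 0.49 in cKO and 7.69 ± 0.57 in WT (SD, n = 4 each). The log2 change was 0.0029, with a 95% confidence interval from -0.64 to 0.65 (limma adjusted p = 0.998), so animals of 1 genotype differed far more than the genotype means.

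Arntl, which encodes the DNA-binding partner of CLOCK, read 8.33, 8.17, 8.31 and 8.59 in G9a cKO and 8.32, 9.03, 8.57 and 8.06 in G9a WT. The lowest array, WT replicate 4, was the one with the highest Dbp, and the highest array, WT replicate 2, was the one with the lowest Dbp. Arntl averaged 8.35 ± 0.17 in cKO and 8.50 ± 0.41 in WT, a log2 change of -0.15 (95% confidence interval -0.54 to 0.25, limma adjusted p = 0.827). The dimmer Arntl probe set averaged 6.76 ± 0.13 in cKO and 6.76 ± 0.15 in WT.

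Clock itself was nearly level, at 7.82, 7.81, 7.89 and 8.04 in G9a cKO and 7.74, 7.89, 7.76 and 7.71 in G9a WT. The groups overlapped, and the log2 change of 0.12 did not pass the test (95% confidence interval -0.04 to 0.27, limma adjusted p = 0.535). Its other 3 probe sets had log2 changes between -0.0029 and 0.052.

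Among the repressors of the loop, Per3 read 6.44, 6.56, 6.31 and 6.32 in G9a cKO and 6.73, 6.20, 6.60 and 6.80 in G9a WT. WT replicates 1, 3 and 4 were above every cKO array and WT replicate 2 was below all of them. The log2 change was -0.18 (95% confidence interval -0.45 to 0.10, limma adjusted p = 0.614), and the 5 Per3 probe sets lay between -0.31 and -0.12. Per2 read 5.56, 5.73, 5.64 and 5.62 in cKO and 5.66, 5.68, 5.71 and 5.83 in WT (log2 change -0.081, limma adjusted p = 0.631). Its dimmer probe set, at 4.40, 4.70, 4.25 and 4.32 in cKO and 4.77, 4.24, 4.76 and 4.92 in WT, had a log2 change of -0.25 that did not pass either (limma adjusted p over all probe sets = 0.509). Per1, which also responds acutely to growth factors and glucocorticoids, lay at 9.60, 9.54, 9.53 and 9.39 in cKO and 9.68, 9.61, 9.56 and 9.36 in WT (log2 change -0.039, limma adjusted p = 0.910).

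Cry2, a repressor of the CLOCK dimer, read 7.59, 7.79, 7.89 and 7.63 in G9a cKO and 8.04, 7.38, 7.59 and 7.67 in G9a WT, with both its extremes in WT. Its log2 change was 0.056 (95% confidence interval -0.23 to 0.34, limma adjusted p = 0.931). Cry1, the other cryptochrome gene, was dim, reading 3.80, 3.89, 3.76 and 3.87 in cKO and 3.78, 4.05, 3.89 and 3.69 in WT. At percentile 8.01 of probe set brightness, RMA compresses its differences, so its log2 change of -0.020 (limma adjusted p = 0.955) says little.

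Bhlhe40 was the clock gene that fell in G9a cKO. It encodes DEC1, a basic helix-loop-helix repressor that binds E-boxes and is also induced by growth factors and stress, and it lies at chr6:108660629-108666925 (GRCm38.p6). It read 6.66, 6.70, 6.38 and 6.14 in cKO and 7.53, 7.66, 7.54 and 6.90 in WT. The groups did not overlap, and WT replicate 4 was nearer to the cKO arrays than to the other WT arrays. Bhlhe40 averaged 6.47 ± 0.26 in cKO and 7.41 ± 0.34 in WT (SD, n = 4 each), a 1.92-fold lower level in cKO. Its log2 change was -0.94 (SE 0.17, 95% confidence interval -1.32 to -0.56, limma adjusted p = 0.0165), and an exact permutation of the 8 arrays (two-sided) had p = 0.0286, the smallest that 4 against 4 arrays allow. Without WT replicate 4 the change was -1.11 (limma adjusted p = 0.00186). The call was lost without WT replicate 1 (-0.90, limma adjusted p = 0.0554) and without WT replicate 3 (-0.89, limma adjusted p = 0.0640).

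Of the 9 measured clock genes, 1 was called lower and 0 higher in cKO at an adjusted p under 0.05. Over all genes 2.76% were called, and 0.836% were called lower. Of the 18 clock probe sets, the 1 of Bhlhe40 passed in a fit over all probe sets (limma adjusted p = 0.0204), where 1.78% were called. Groups that did not overlap were found for 1 of the 9 clock genes, against 8.24% of all genes. The median log2 change was -0.039 over the clock genes and 0.0027 over all genes, with 3 clock genes above 0 and 6 below it.

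**Figure D2:**
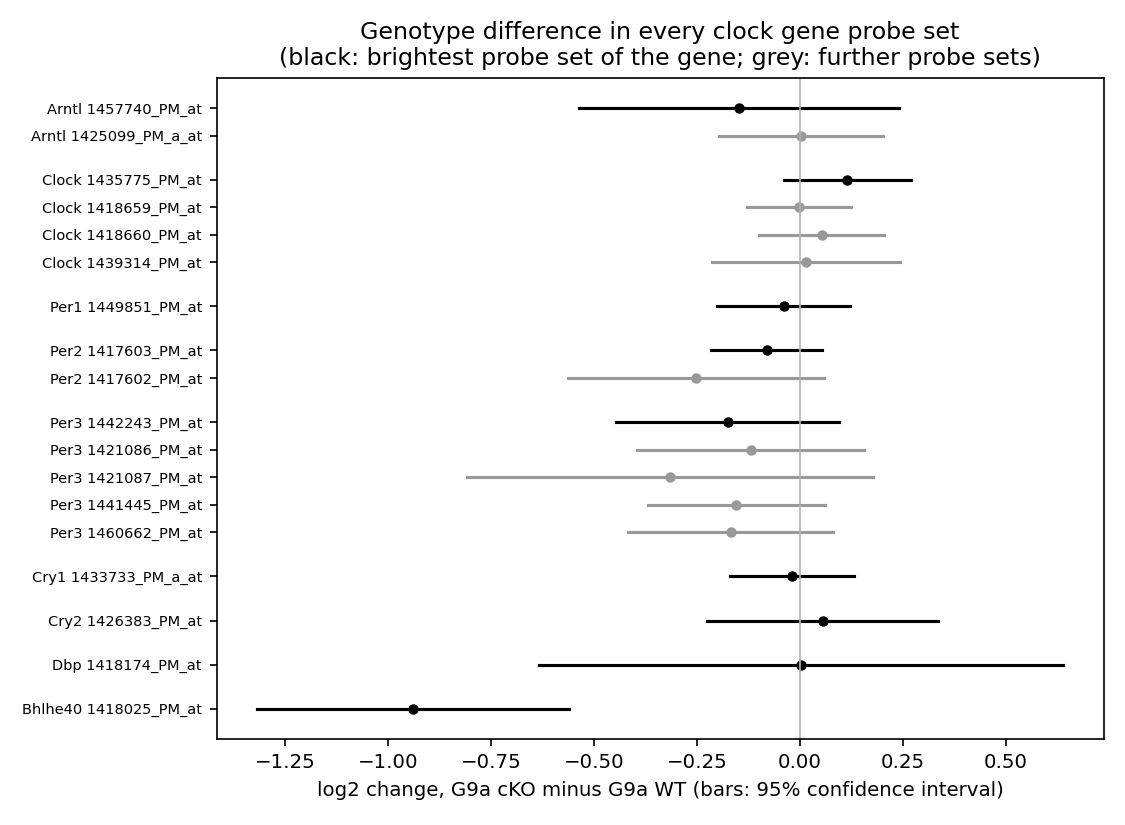
Log2 change, G9a cKO minus G9a WT (horizontal axis), of all 18 clock gene probe sets with 95% confidence intervals from the limma fit over all probe sets. Black marks the brightest probe set of each gene and grey the further ones. The interval of Bhlhe40 lies below 0, and the other 17 include 0.

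Bhlhe40 varied with the immediate early genes, whose transcription is switched on rapidly by growth factors, stress and tissue dissociation. The mean deviation of 18 measured immediate early genes of 20 listed was -0.13, -0.081, -0.21 and -0.25 in G9a cKO and 0.28, 0.36, 0.20 and -0.16 in G9a WT. WT replicate 4 thus stood among the cKO arrays in this list, as the WT array with the lowest Bhlhe40. None of the 18 passed over all genes, and all 18 lay below 0 (median log2 change -0.31, lowest adjusted p = 0.0609 by limma). Because both measures differ by genotype, the relation was taken within genotypes: the deviations of Bhlhe40 and of the list from their genotype means had r = 0.92 (exact permutation within genotypes, p = 0.00347, adjusted p = 0.0781 over 27 relations of clock genes with 3 lists, n = 8). Over all 8 arrays without taking deviations r was 0.95. Without the 2 arrays farthest from the median of the list, WT replicates 1 and 2, the r of the deviations was 0.94, and without WT replicate 4 it was 0.81 (exact permutation within genotypes, p = 0.0417, adjusted p = 0.5, n = 7). Bhlhe40 also lay with the glucocorticoid-responsive list, without passing. Between deviations r was 0.84 (exact permutation within genotypes, p = 0.00694, adjusted p = 0.0781, n = 8), and 0.76 without WT replicate 4. Over all arrays without taking deviations r was 0.73 (exact permutation p = 0.0460, adjusted p = 0.380, n = 8). Without WT replicates 1 and 2 that r was 0.37, while the r of the deviations was 0.83. With the immediate early list mean as a covariate the log2 change of Bhlhe40 was -0.38 and not past the threshold (limma adjusted p = 0.300), and this covariate itself differed between the genotypes. Whether the immediate early genes have a part in the Bhlhe40 result was not tested further.

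**Figure D3:**
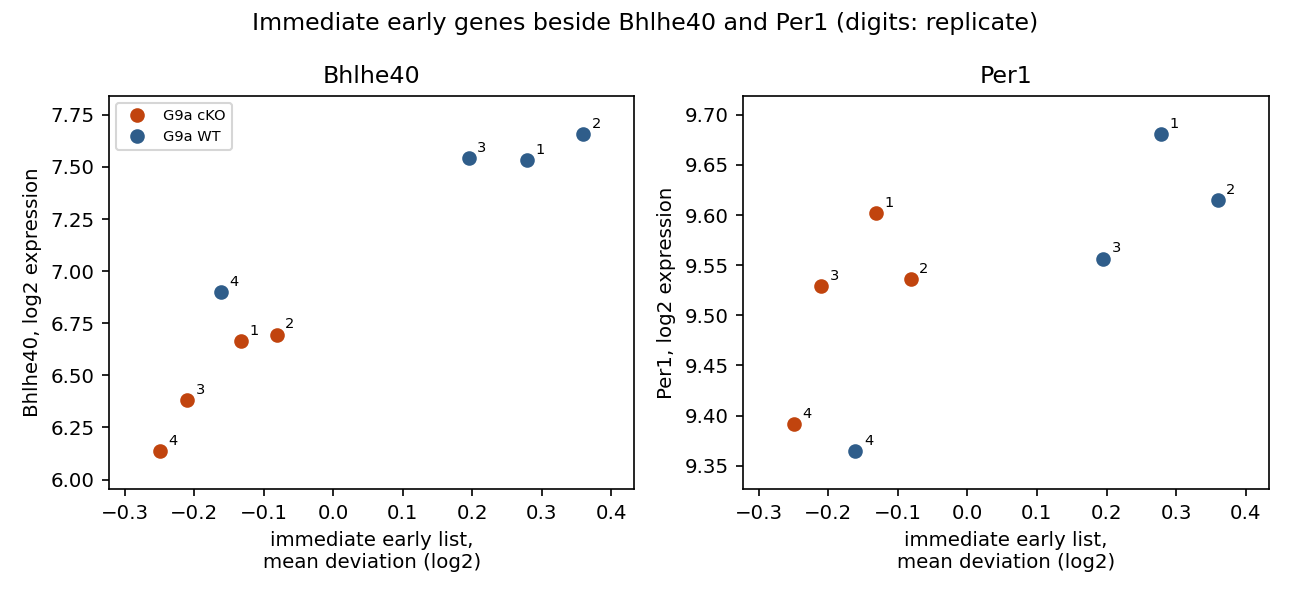
Log2 expression of Bhlhe40 (left) and Per1 (right) against the mean deviation of the immediate early list on each array, with G9a cKO in orange and G9a WT in blue and digits giving the replicate. WT replicate 4 lies among the cKO arrays on the horizontal axis, and Bhlhe40 there is 6.90.

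Of the lists of other cell types, 1 gene was called, the fibroblast collagen gene Col1a1 (limma adjusted p = 0.00100), at 6.17 ± 0.19 in cKO and 7.08 ± 0.11 in WT (SD, n = 4 each). It was 1 of 6 fibroblast markers measured, where 2.76% of all genes were called, and the list had a median log2 change of 0.00023, with 3 above 0 and 3 below. Lum, at 3.89 in cKO and 3.86 in WT, and Col3a1, at 4.32 and 4.36, were dim and close between genotypes. The mean deviation of the list ranged from -0.12 to 0.013 in cKO and from 0.039 to 0.12 in WT, and its part in the Bhlhe40 result was not tested.

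Per1 and Bhlhe40 had r = 0.60 over the 8 arrays (exact permutation p = 0.123, adjusted p = 0.343 over 36 pairs, n = 8) and 0.43 without cKO replicate 4. Between their deviations from genotype means r was 0.90 (exact permutation within genotypes, p = 0.0243, adjusted p = 0.175, n = 8), and 0.74 without WT replicate 4, and neither form passed. Per1 also lay with the glucocorticoid-responsive genes (9 without Per1), at r = 0.86 and rho = 0.93 (exact permutation p = 0.00670 and 0.00223, adjusted p for r = 0.0904 over 27 relations, n = 8). Its r was 0.84 without the 2 farthest arrays, and between deviations 0.88 with WT replicate 4 and 0.84 without it. Per1 and the immediate early list had r = 0.71 (exact permutation adjusted p = 0.380, n = 8). Between deviations r was 0.87 (exact permutation within genotypes, adjusted p = 0.152, n = 8), and 0.62 without WT replicate 4. Without the 2 farthest arrays these r were 0.46 and 0.83, and neither form passed. The third list held 19 proliferation genes, whose mean deviation was 0.42, 0.13, -0.34 and -0.26 in G9a cKO and -0.21, -0.31, 0.078 and 0.49 in G9a WT. Clock lay against it at r = -0.60 and rho = -0.69 (exact permutation p = 0.114 and 0.0694, n = 8), and Per3 with it at r = 0.59 and rho = 0.74 (exact permutation p = 0.124 and 0.0458, n = 8), both with an adjusted p for r of 0.431.

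Of the 36 pairs of clock genes, 1 passed the test of its correlation over the 8 arrays. Arntl and Dbp were opposed, with Pearson r = -0.86 and Spearman rho = -0.95 (exact two-sided permutation p = 0.000620 and 0.00114, adjusted p = 0.0223 and 0.0411 over 36 pairs, n = 8). Their deviations from genotype means had r = -0.89, which did not pass with the 576 orders possible within genotypes (exact permutation p = 0.00347, adjusted p = 0.0625). Without the 2 arrays farthest from the median of Arntl, WT replicates 2 and 4, r was -0.83 (exact permutation p = 0.0403, n = 6). Leaving out 1 array at a time gave r from -0.95 to -0.82, and 3 of these 8 tests passed. The call was lost without cKO replicate 2 (exact permutation adjusted p = 0.119, n = 7), cKO replicate 3 (0.163), WT replicate 1 (0.286), WT replicate 2 (0.161) and WT replicate 4 (0.183). It was also lost when a gene's probe sets were averaged (r = -0.83, exact permutation adjusted p = 0.144) and after quantile normalization was run again (r = -0.84, exact permutation adjusted p = 0.0938). The dimmer Arntl probe set had r = -0.51 with Dbp (exact permutation adjusted p = 0.276 over 34 relations, n = 8). With the brightest Arntl probe set it had r = 0.59. The 34 relations count the pair of the brightest Arntl probe set and Dbp from both sides, which makes their adjusted p smaller.

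**Figure D4:**
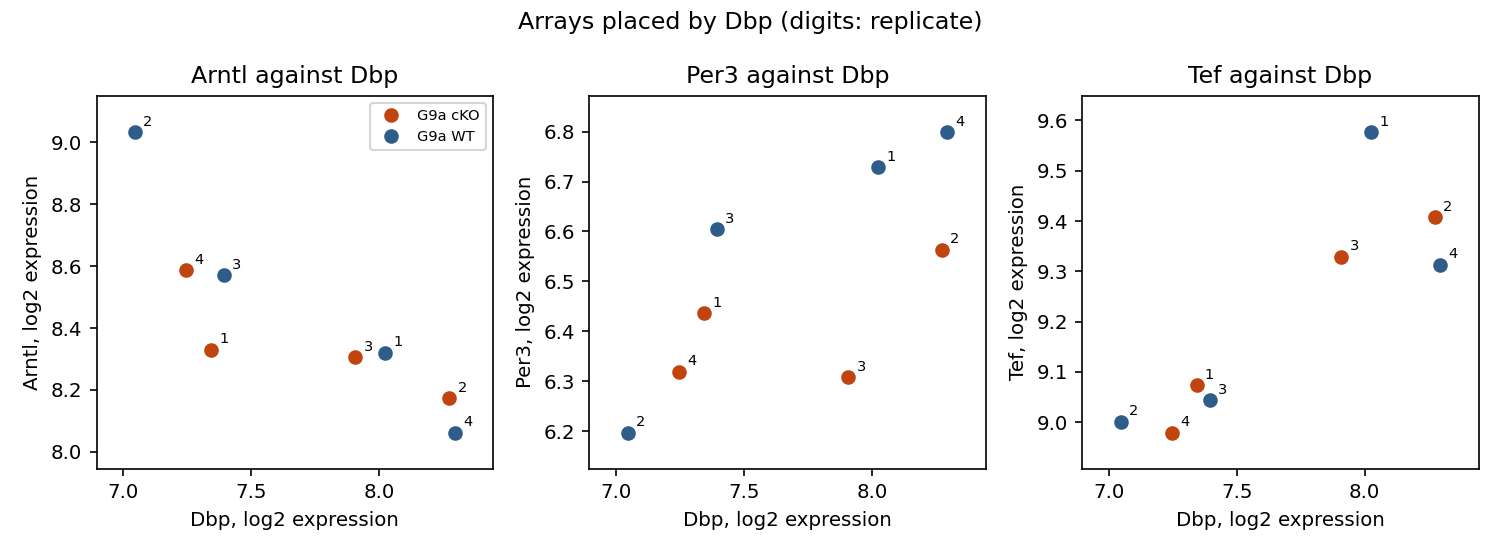
Log2 expression of Arntl, Per3 and Tef (vertical axes) against that of Dbp (horizontal axis) on the 8 arrays, with G9a cKO in orange, G9a WT in blue and digits for the replicate. Arntl falls and Tef rises along Dbp in both genotypes. Per3 rises with Dbp, with cKO replicate 3 below the other arrays of high Dbp.

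Whether the D-box letters shown above have a part in the expression of Per3 was not tested. Per3 lay on the side of Dbp in all 5 of its probe sets. Their r with Dbp ran from 0.70 to 0.81 and their rho from 0.76 to 0.95. The 3 strongest had an exact permutation p of 0.00828, 0.00898 and 0.00928, each with an adjusted p of 0.0534 over 34 relations of clock probe sets with Dbp or Arntl (n = 8). That adjusted p is too small, as the pair of the brightest Arntl probe set and Dbp was counted from both sides. Without the 2 arrays farthest from the median of Dbp, cKO replicate 2 and WT replicate 4, the 5 values ran from 0.53 to 0.77. The brightest Per3 probe set, at r = 0.70 with Dbp (exact permutation p = 0.0572, adjusted p = 0.343 over 36 pairs, n = 8), had r = 0.40 without the 2 arrays farthest from the median of Per3, WT replicates 2 and 4, so this relation too rests on them. Against Arntl the brightest Per3 probe set had r = -0.70 (exact permutation p = 0.0479, adjusted p = 0.343 over 36 pairs, n = 8). Without WT replicates 2 and 4 this r was -0.20, so the r taken without deviations rests on those arrays. Between deviations from genotype means r was -0.93 (exact permutation within genotypes, adjusted p = 0.0625, n = 8). With 1 array left out the r of the deviations ran from -0.97 to -0.81.

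Per2 and Cry2 also lay with Dbp, and Clock and Cry1 with Arntl, without passing. The r with Dbp was 0.71 for Cry2 (exact permutation p = 0.0523, n = 8) and 0.58 for Per2 (exact permutation p = 0.130, n = 8), both with an adjusted p of 0.343. Without the 2 arrays farthest from the median of the first gene of each pair it was 0.61 for Cry2 and 0.28 for Per2. Arntl and Cry1 had r = 0.86 (exact permutation p = 0.00943, adjusted p = 0.119, n = 8), which fell to 0.32 without WT replicates 2 and 4 and therefore rests on them. Their rho was 0.62 (exact permutation p = 0.115, n = 8), and Cry1 was dim, so its relations say little. Clock and Per3 were opposed at r = -0.82 (exact permutation p = 0.00992, adjusted p = 0.119, n = 8), at -0.96 without the 2 farthest arrays and at -0.77 between deviations from genotype means. The r of Arntl and Clock was 0.49 over all arrays and 0.81 between deviations from genotype means (exact permutation adjusted p = 0.473 and 0.0625). The dimmer Clock probe sets had r with Arntl from 0.24 to 0.40 over all arrays and from 0.35 to 0.40 between deviations. Per1 stood outside this pattern, with r = -0.20 against Dbp and 0.30 against Arntl.

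**Figure D5:**
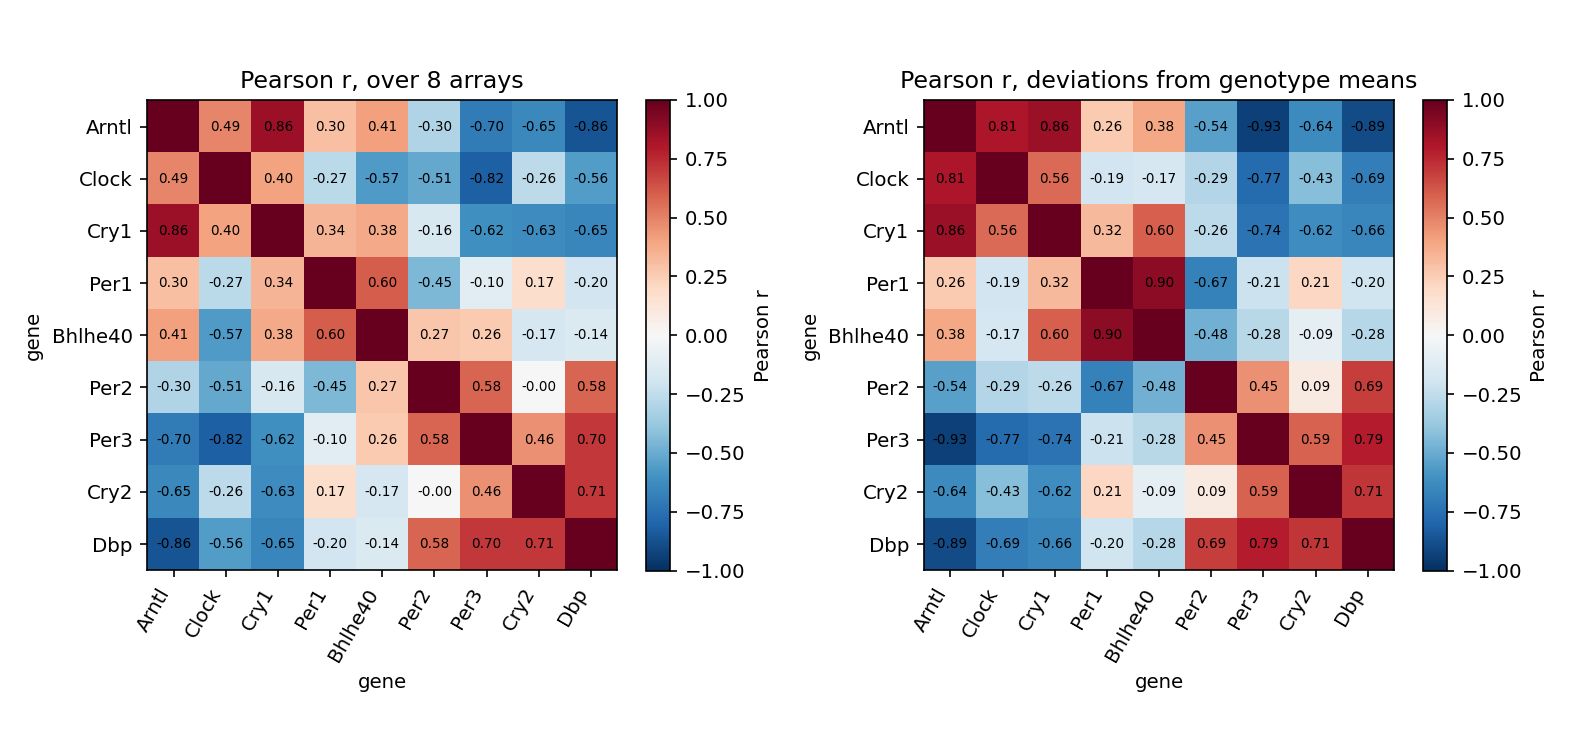
Pearson r between the 9 clock genes over the 8 arrays (left) and between their deviations from genotype means (right), from -1 in blue to 1 in red. Arntl, Clock and Cry1 form a positive block at the upper left, and Per2, Per3, Cry2 and Dbp lie at the lower right, positive but for Per2 and Cry2 near 0, with negative values between the blocks. The order of the genes was set by hand. Of the 36 pairs, 1 passed over the 8 arrays, and Cry1 was dim.

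Over the 36 pairs the median absolute r was 0.45, against 0.33 over all 146145156 pairs of genes. None of the clock gene pairs was beyond 0.9, where 0.709% of all gene pairs were. The clock genes share these 8 arrays, so the pairs are not independent of each other.

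The other genes of the clock were taken from a list of 38, of which 32 were measured. By their brightest probe sets none passed the genotype test (limma, 0 of 32), and 5 had an unadjusted p under 0.05, where 13.7% of all genes did. Hlf, a PAR bZIP gene like Dbp, read 7.25, 7.22, 7.15 and 6.80 in G9a cKO and 6.78, 6.66, 6.79 and 6.89 in G9a WT. The 3 highest arrays were all cKO, while cKO replicate 4 lay within the WT range. The log2 change of Hlf was 0.32 (limma adjusted p = 0.146), and 0.43 without cKO replicate 4, where it passed (limma adjusted p = 0.0197). Among all probe sets of the listed genes, a further, dimmer one of Cdkn1a, a cell cycle inhibitor gene, did pass in the fit over all probe sets, where 1.78% were called. It read 9.89, 10.03, 9.76 and 9.65 in G9a cKO and 10.31, 10.29, 10.26 and 10.11 in G9a WT, with no overlap (log2 change -0.41, limma adjusted p = 0.0290). The brightest Cdkn1a probe set had a log2 change of -0.27 and overlapping groups (limma adjusted p = 0.197). The others were Klf10, a Krüppel-like factor gene (-0.21, limma adjusted p = 0.271), Sirt1, a deacetylase gene (-0.40, limma adjusted p = 0.319), and Arntl2, a paralog of Arntl (0.23, limma adjusted p = 0.352). Without WT replicate 4, Klf10 (-0.29) and Sirt1 (-0.56) passed, with limma adjusted p of 0.0410 and 0.0313.

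Some listed genes followed Dbp closely across animals. Tef, whose E-box is shown above, read 9.07, 9.41, 9.33 and 8.98 in G9a cKO and 9.58, 9.001, 9.04 and 9.31 in G9a WT, with the same 4 animals high as for Dbp. Its r with Dbp over the 8 arrays was 0.87, which ranked 59 of 17096 genes from the top. Nr1d2, the gene of REV-ERBβ, read 9.14, 9.25, 9.26 and 9.19 in cKO and 9.18, 9.06, 9.07 and 9.31 in WT. Nr1d2 had r = 0.84 with Dbp (rank 129 from the top) and -0.83 with Arntl (rank 246 from the bottom). Prkaa1, a catalytic subunit gene of the kinase AMPK, had r = 0.89 with Dbp (rank 30). These are descriptions over 8 arrays with no test. Not all of the list followed: Hlf had r = 0.38 with Dbp, and Fbxw11 lay against it at -0.69. Of the other listed genes with E-box letters, Ciart had r = 0.24 with Dbp, Bhlhe41 0.36, Nr0b2 0.50 and Sirt1 -0.20.

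The gene most like Dbp over the 8 arrays was its neighbour Sphk2, a sphingosine kinase gene, with r = 0.99. Sphk2 read 8.20, 9.28, 8.91 and 8.07 in G9a cKO and 9.18, 7.78, 8.38 and 9.25 in G9a WT, and placed high and low animals as Dbp did. In GRCm38.p6 Sphk2 lies at chr7:45709463-45718002 and shares 741 bases with the annotated span of Dbp. Whether either probe set lies in the shared stretch was not tested. Next came Chmp5 (r = 0.98), Trim23 (0.95), Stard4 (0.94) and Hace1 (0.94). Most like Bhlhe40 were Crybg2, Ano1, Atf4, Larp1b and Fst, at r from 0.98 to 0.99. These r include the genotype difference of Bhlhe40, and between deviations from genotype means they were 0.92 to 0.97. Of these genes, Atf4 encodes a stress-response transcription factor and Fst is the bulge marker that also fell in cKO. Most like Arntl were Fgf17 (0.98), Lyg2, 0610039K10Rik, Aldoart1 and Phkg1 (0.95 to 0.96), all with a mean level under 5.78, near or below the median probe set at 5.91. The strongest opposites were Speer4cos for Dbp (r = -0.97), Casp8ap2 for Arntl (-0.97) and Tbc1d32 for Bhlhe40 (-0.99, and -0.97 between deviations).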

How the data were processed

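The deposited values are log2 expression per probe set, made by the authors with RMA per the submitters' processing notes; the sources used here give neither its version nor its settings. Per the labels' protocols, 25 ng of RNA were amplified over 17 cycles. No further normalization was applied, and the number of arrays limits precision. Of 45141 probe sets, 28898 had 1 gene symbol, 551 several and 15692 none here; none carried the single symbol Nr1d1. The brightest probe set (highest mean) stood for each of 17097 genes and was tested with limma 3.58.1 (R 4.3.3; eBayes with trend, two-sided, no covariates), with Benjamini-Hochberg adjustment over all genes, or over 45037 probe sets where named. On simulated data for this comparison over 17097 genes, 80.0% of genes moved by 0.5 on the log2 scale were recovered, and 7 of 196 calls were false. The simulated noise was independent between genes and followed each gene's own spread, without shifts shared by the genes of an array. The moved genes were drawn from all genes, so the 80.0% does not hold for genes as variable as Dbp or Arntl. Calls in the real data may be false at another rate. The titles name an animal for each array, so the p-values rest on the spread among animals. Relations used exact permutation of 8 arrays (40320 orders); 36 pairs were tested because 9 of 10 genes were measured. A list's mean deviation is the mean over its genes of the value minus the gene's mean over the 8 arrays. The members and lists were chosen with earlier results of these data known. Named genes are the 10 members, the listed clock genes with the lowest p, and the genes most and least like Dbp, Arntl and Bhlhe40. Tef, Nr1d2, Prkaa1, Ciart, Fbxw11, the other listed genes with motif letters and the marker genes were picked from fixed lists after their values were seen. Alternatives were quantile normalization again, a common median, averaging all probe sets, leaving out dim genes (lowest 40%), eBayes without trend, array weights, a replicate block, an immediate early covariate and leaving out each array.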

Additional observations from a re-analysis of the deposited data

Results flagged for a closer look

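In 3 of 36 groups of 4 arrays (18 clock probe sets in each genotype), 1 array lay apart from the other 3 by Dixon's 95% criterion; chance gives about 1 in 20. Bhlhe40 in WT replicate 4 was 6.899, with the other WT arrays from 7.53 to 7.66. The dimmer Arntl probe set in cKO replicate 4 was 6.951, with the other cKO arrays from 6.69 to 6.72. A further Per3 probe set in cKO replicate 2 was 6.461, with the other cKO arrays from 6.07 to 6.13.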

How the results depend on the processing

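Over all genes 472 were called, against 732 with array weights, 268 with a replicate block, 87 with the immediate early covariate and 258 to 796 with 1 array left out (796 without WT replicate 4); the cause was not tested. Bhlhe40 remained below 0 in every alternative run. The count of clock genes called was 0 with the immediate early covariate and 0 to 1 with 1 array left out, and otherwise 1, with the replicate block included (Bhlhe40 adjusted p = 0.00411). Deviations of same-numbered arrays had correlations of -0.53 to 0.028, so the numbers were not taken as pairs. The count of pairs past the threshold was 0 for deviations from genotype means, 0 for the mean of all probe sets, 0 after quantile normalization again, 0 without the 2 farthest arrays and 0 to 2 with 1 array left out. Other clock genes called numbered 0 to 2 with 1 array left out. The sign turned with the immediate early covariate for Arntl (0.23), Cry1 (0.15), Per1 (0.16) and Dbp (-0.44), and for Dbp after quantile normalization again (-0.022). With 1 array left out the log2 change ranged from -0.29 to 0.031 for Arntl, -0.073 to 0.045 for Cry1, -0.041 to 0.18 for Cry2, -0.21 to 0.20 for Dbp and -0.10 to 0.0029 for Per1, and none of these passed. Cry1 was too dim to be fitted once the lowest 40% were left out. Correlations of deviations with 1 array left out were added after seeing the data.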
